A study of Mus musculus with 135 samples.

Results

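The genes described here are 9 members of the hypoxia-inducible factor (HIF) pathway, namely *Hif1a*, *Epas1*, *Arnt*, *Vhl*, *Egln1*, *Egln2*, *Hif1an*, *Bnip3* and *Vegfa*, chosen by name from the deposited read count table. All 9 were in the table, which holds 15181 genes. HIF is a transcription factor of an oxygen-sensitive alpha subunit, encoded by *Hif1a* or *Epas1*, and a stable partner encoded by *Arnt*. In the presence of oxygen the prolyl hydroxylases encoded by *Egln1* and *Egln2* mark the alpha subunit, the VHL protein then directs it to degradation, and the hydroxylase encoded by *Hif1an* blocks its binding of coactivators, so that much of the pathway is controlled at the level of protein and not of transcript. When oxygen is low, HIF binds short response elements at target genes such as *Bnip3*, a receptor for the removal of mitochondria, and *Vegfa*, a growth factor for blood vessels, and haematopoietic stem cells (HSCs) are known to reside in bone marrow of low oxygen tension.

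Single HSCs were sorted by the phenotype 7AAD-Lin-Sca-1+c-Kit+CD150+CD48- from bone marrow of C57BL/6 mice that carry a Vwf-eGFP reporter, 1 of them young (aged 2 to 3 months) and 1 old (20 to 25 months), with no treatment in either group. Both mice carried the reporter. The table holds 61 young and 74 old cells, of which 52 and 62 passed the study's limits on reads, mitochondrial share and detected genes and are described here. Between 273236 and 5688706 reads per young cell (median 2798989) and between 276316 and 4086659 per old cell (median 2116023) were counted on genes, and a median of 4115.5 and 3901.5 genes was expressed per cell. Because each age was 1 mouse, the cells of an age are not replicates, no test between the ages was made, and age cannot be told apart from the mouse or its capture run. Of the HSC markers, *Kit* was expressed in 49 young and 61 old cells, *Hlf* in 49 and 55, *Mecom* in 43 and 40, *Ly6a* (Sca-1) in 28 and 43, *Procr* in 11 and 24 and *Slamf1*, which encodes the CD150 that the sort requires, in only 9 and 15. Of the genes whose proteins the sort excludes, *Cd48* was expressed in 1 young cell and no old cell, which allows a share of up to 4.84% of the old cells, and the lineage gene *Itgam* in 8 young cells and 1 old cell. At least 1 measured marker of T cells (*Cd3d* or *Lck*) was expressed in 23 young and 21 old cells, of macrophages and granulocytes in 9 and 3, of erythroid cells in 6 and 1, of stromal cells in 5 and 1, and of megakaryocytes and platelets in 38 and 48. The cells of the 2 ages also differed in other ways, since 27 young and 13 old cells expressed at least 1 of the cell cycle genes *Ccna2*, *Ccnb1*, *Cdk1* and *Cdc25c*, and *Xist*, the RNA of the inactive X chromosome, was expressed in 50 young and 8 old cells. The members were also computed in the cells without cell cycle genes, and the part of the other differences in the values below was not tested.

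On GRCm38.p6, *Hif1a* was annotated at chr12:73901324-73947554 (plus strand), *Epas1* at chr17:86753864-86833410 (plus), *Arnt* at chr3:95434367-95497240 (plus), *Vhl* at chr6:113623994-113631634 (plus), *Egln1* at chr8:124908587-124949254 (minus), *Egln2* at chr7:27158658-27166802 (minus), *Hif1an* at chr19:44562854-44576274 (plus), *Bnip3* at chr7:138890836-138909506 (minus) and *Vegfa* at chr17:46016993-46032377 (minus). Whether strand was used in counting is not stated, so that reads of overlapping exons could not be assigned by strand. Such overlaps were found at *Hif1a*, which shares 330 exonic bases with the antisense gene *Gm15283* and 148 with *Gm49321* on its own strand, at *Bnip3*, which shares 504 with the antisense gene *Gm45507*, and at *Egln2*, which shares 11 with *Cyp2t4* on the opposite strand. None of these neighbours is in the table used here.

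HIF binds DNA at a short core sequence, and some genes of the pathway are themselves known HIF targets. The RefSeq promoter table (GRCm38.p6, 250 bases before to 50 after a transcript's start) held 10 promoters for 8 of the members. The core was searched as ACGTG and GCGTG on both strands, where a CACGTG counts on both because it reads the same on each. At least 1 match was present in 7 of the 10 promoters, belonging to 6 of the 8 members. Of all 32851 promoters of the table, 14380 (43.8%) held one. Whether the members depart from that share was not tested, and some of the 10 promoters belong to the same gene. The promoters of *Bnip3*, *Egln1* and *Hif1a* are shown because these are the members with the largest differences in mean log2(CPM + 1), defined below, between the ages. They lie at chr7:138909457-138909756 (minus strand), chr8:124949205-124949504 (minus) and chr12:73907617-73907916 (plus, at the start of a transcript within the annotated gene). Each is written 5′ to 3′ on the strand of the gene, with capitals on the bases that match the core on either strand.
Bnip3: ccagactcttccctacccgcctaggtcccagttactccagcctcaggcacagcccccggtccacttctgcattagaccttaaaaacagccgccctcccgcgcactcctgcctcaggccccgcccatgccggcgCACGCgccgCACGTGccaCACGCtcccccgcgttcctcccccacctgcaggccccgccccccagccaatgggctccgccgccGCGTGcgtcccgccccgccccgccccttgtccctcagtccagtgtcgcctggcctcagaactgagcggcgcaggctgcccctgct
Egln1: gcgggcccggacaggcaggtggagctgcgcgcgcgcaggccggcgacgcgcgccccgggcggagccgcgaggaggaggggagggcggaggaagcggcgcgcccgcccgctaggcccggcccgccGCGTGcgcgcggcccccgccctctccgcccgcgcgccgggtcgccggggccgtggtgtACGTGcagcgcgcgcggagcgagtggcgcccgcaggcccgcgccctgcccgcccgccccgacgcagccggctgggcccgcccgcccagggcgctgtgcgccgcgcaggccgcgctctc
Hif1a: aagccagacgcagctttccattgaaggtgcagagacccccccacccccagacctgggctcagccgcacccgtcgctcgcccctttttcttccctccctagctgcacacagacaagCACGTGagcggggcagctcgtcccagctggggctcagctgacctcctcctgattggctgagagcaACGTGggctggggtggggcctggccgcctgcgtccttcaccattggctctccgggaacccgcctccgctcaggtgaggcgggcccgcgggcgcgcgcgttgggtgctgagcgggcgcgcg
The *Bnip3* promoter held 5 matches, 2 on the strand shown and 3 on the other, with 1 palindrome counted on both. That of *Egln1* held 2, both on the strand shown, and that of *Hif1a* held 3, with 1 palindrome. The *Egln2* promoter at the annotated start of the gene held 6 matches, and the other, within the annotated gene, held 1. The *Arnt* promoter held 1. For *Vegfa* the promoter at the annotated start held 0, and the other, at a transcript start within the annotated gene, held 2. *Vegfa* is thus among the 6 members with a match only through that inner promoter. No match was present in these windows of *Vhl* and *Hif1an*. A match is a string of letters and does not show that HIF was bound there.

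CPM is the number of a gene's reads scaled to the reads counted in its cell (counts per 1000000), and a level is log2(CPM + 1), averaged over the cells of an age. Differences are old minus young on that scale. Expression of a gene in a cell means here a log2(CPM + 1) above 2, that is a CPM above 3. Every member was at 0 in at least 15 of the 52 young and 23 of the 62 old cells, so that the lowest value was 0 in both ages for all 9 and the ages overlapped for each of them. Expressing cells were thus a minority for every member. The largest share in either age was that of *Egln2*, in 35.5% of the old cells, and the smallest that of *Epas1*, in 4.84% of the old cells.

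**Figure D1:**
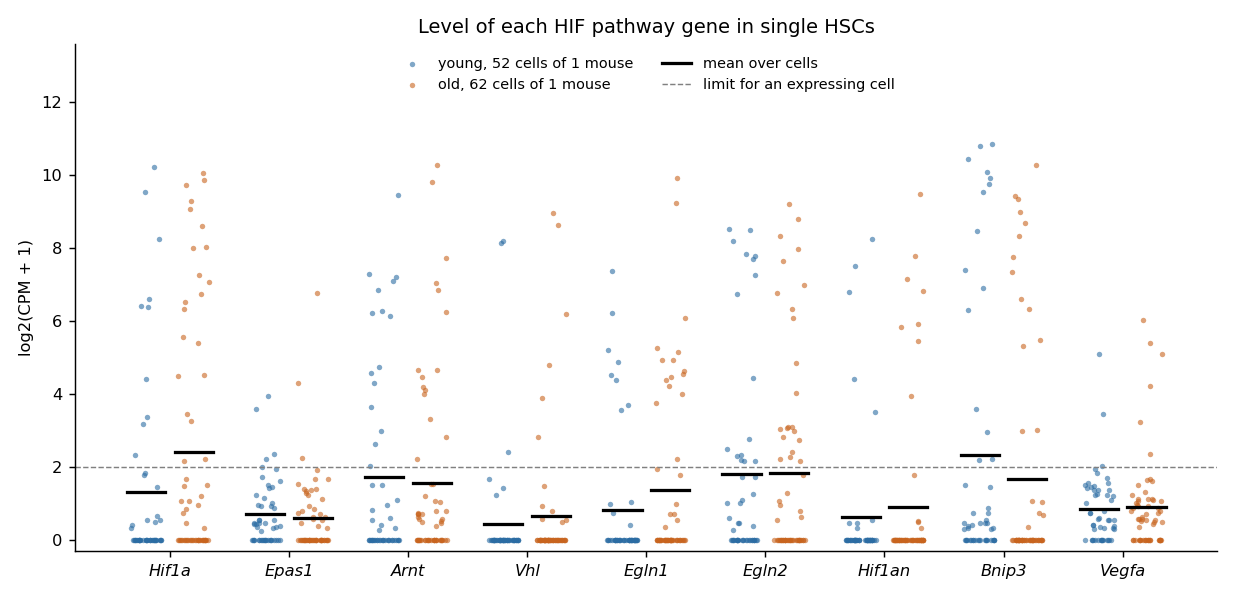
Level of the 9 members in each of the 52 young and 62 old cells. The vertical axis is log2(CPM + 1), each point is 1 cell, black lines are means over cells and the dashed line is the limit of 2 for an expressing cell; most cells lie at or near 0 and a few reach 10 or more for *Hif1a*, *Arnt* and *Bnip3*.

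*Hif1a*, which encodes the oxygen-regulated alpha subunit, was the member with the largest difference between the ages in mean log2(CPM + 1). In the young cells its log2(CPM + 1) had a median of 0 and a highest value of 10.24, and in the old cells a median of 0.39 and a highest value of 10.05. It was expressed in 10 young cells (19.2%, 95% exact Clopper-Pearson interval 9.63% to 32.5%) and in 21 old cells (33.9%, 22.3% to 47%), so that the highest values were alike in both ages and the share of expressing cells was larger in the old mouse, with intervals that overlap. The mean level was 1.32 (SD over cells 2.64) in young and 2.40 (3.35) in old cells, a difference of 1.08. This was less than the spread between cells of either age. In young cells that expressed the gene the median level was 6.40, and in such old cells it was 6.74. Of its 5792 reads in young cells (95% exact Poisson interval 5644 to 5943), 44.4% came from the cell D3, and of its 15046 reads in old cells (14807 to 15288), 22.3% came from the cell G9. Without G9 the difference was 0.95, and without D3 it was 1.26. The Poisson intervals treat reads as independent counts. The reads carried no molecular identifiers, so that amplified copies of 1 molecule could not be told apart and these intervals can be too narrow. They also leave out the spread between cells and between mice. The Clopper-Pearson intervals cover the sampling of cells within 1 mouse only.

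The difference of *Hif1a* was the only one among the members to reach 1 in size. Of the 9374 genes that at least 10% of the 114 cells expressed, 585 (6.24%) were higher in old cells by at least 1 and 654 (6.98%) were lower by at least 1. Among the members, 6 were expressed in enough cells for this comparison, and 1 of these 6 was higher by at least 1 and 0 were lower. The median difference of the 6 was 0.16, and that of all 9374 genes was -0.07. The difference of *Hif1a* kept its sign but fell below 1 when all 61 young and 74 old cells were used (0.93) and when it was computed as the log2 ratio of mean CPM (0.88). On that ratio *Egln1* (2.12) was the compared member higher by at least 1 and *Bnip3* (-1.33) the one lower. The shares of all genes given above are for the difference in mean log2(CPM + 1). The share that passes 1 on the ratio is not given here, so these 2 members cannot be set against it. In the 25 young and 49 old cells that expressed none of the cell cycle genes the difference of *Hif1a* was 1.51.

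**Figure D2:**
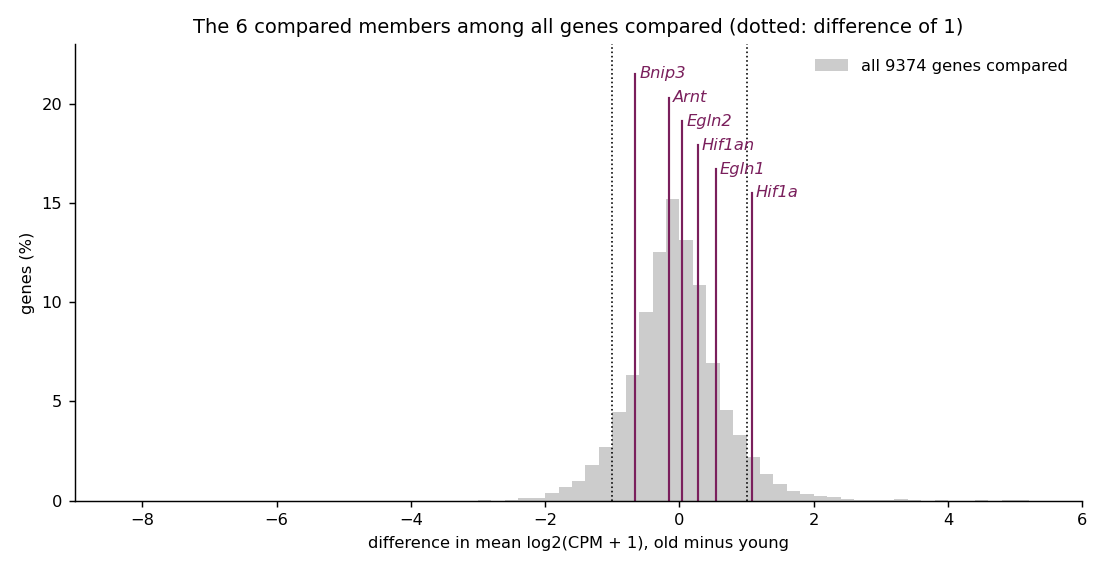
Differences in mean log2(CPM + 1), old minus young, of the 6 members expressed in at least 10% of cells, among all 9374 such genes. The horizontal axis is the difference, the grey bars give the percentage of genes per bin of 0.2 and the dotted lines mark a difference of 1 in size; the height of a member's line has no meaning, and *Hif1a* alone lies beyond a dotted line.

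*Epas1*, which encodes the other alpha subunit, was scarce. It was expressed in 4 young cells (7.69%, 2.14% to 18.5%), at log2(CPM + 1) of 2.22, 2.36, 3.60 and 3.95, and in 3 old cells (4.84%, 1.01% to 13.5%), at 2.24, 4.30 and 6.77. Its median over all cells was 0.41 in young and 0 in old cells. The old cell C8 gave 178 of the 268 *Epas1* reads in old cells and the young cell D8 gave 54 of the 167 in young cells. Its mean was 0.70 (SD 0.92) in young and 0.59 (1.12) in old cells, a difference of -0.11, whereas the log2 ratio of mean CPM was 1.12 and became -0.55 without C8. The direction for *Epas1* thus depended on 1 cell and on the scale. A read of *Epas1* was nevertheless present in 59.6% of the young and 41.9% of the old cells, mostly as 1 to 10 reads per cell (28 young and 24 old cells), and in 10 young and 8 old cells after thinning to 250000 reads.

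*Arnt*, which encodes the partner of both alpha subunits, was expressed at similar shares. Its log2(CPM + 1) had a median of 0 and a highest value of 9.46 in the young cells, and a median of 0.48 and a highest value of 10.29 in the old cells. It was expressed in 15 young cells (28.8%, 17.1% to 43.1%) and 15 old cells (24.2%, 14.2% to 36.7%). Averaged over cells, the level was 1.72 (SD 2.65) in young and 1.56 (2.55) in old cells, a difference of -0.16, and the log2 ratio of mean CPM was 0.59, so that the sign differed between the scales. That of the ratio turned on 1 cell: the old cell B10 gave 44.1% of the summed CPM of old cells, and without B10 the ratio was -0.23. Without the old cell C6, which held 42.8% of the old reads, it was 0.06, and without the young cell B5, which held 55.1% of the young reads, it was 1.41.

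**Figure D3:**
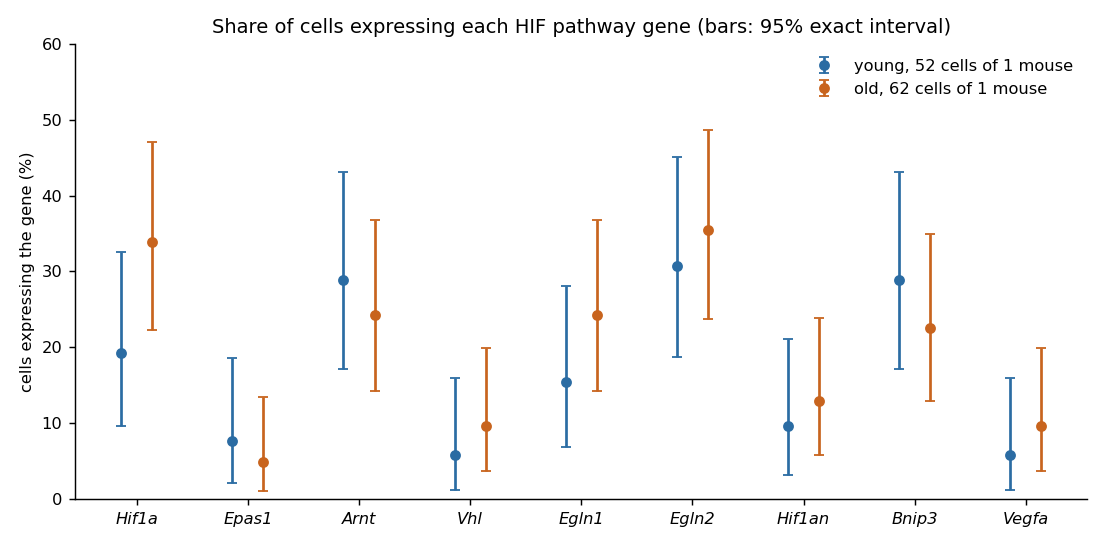
Share of cells that expressed each member. The vertical axis is the percentage of the 52 young or 62 old cells with log2(CPM + 1) above 2. Bars are 95% exact intervals, which cover the sampling of cells within 1 mouse only. The intervals of the ages overlap for every member, and the share is larger in old cells for 6 members and smaller for *Epas1*, *Arnt* and *Bnip3*.

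*Egln1*, the main prolyl hydroxylase that marks the alpha subunits, was the hydroxylase gene with the largest difference on either scale. Its median was 0 in both ages, and its highest log2(CPM + 1) was 7.38 in the young cells and 9.93 in the old cells. It was expressed in 8 young cells (15.4%, 6.88% to 28.1%) and in 15 old cells (24.2%, 14.2% to 36.7%). On average the level was 0.83 (SD 1.86) in young and 1.37 (2.40) in old cells, a difference of 0.54. In cells that expressed the gene the median level was alike, at 4.71 and 4.64. The log2 ratio of mean CPM was 2.12, and 1 cell weighed most in it, since the old cell B11 gave 50.6% of the summed CPM of old cells, and without B11 the ratio was 1.13. The old cell C4 held 1620 of the 3045 old reads, and without C4 it was 1.60. The level was higher in old cells under all 9 alternative settings, with differences of 0.28 to 2.12.

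*Egln2*, which encodes a second prolyl hydroxylase, was expressed in 16 young cells (30.8%, 18.7% to 45.1%) and 22 old cells (35.5%, 23.7% to 48.7%). Its median log2(CPM + 1) was 0.33 in young and 0 in old cells, and its highest values were 8.53 and 9.21. The mean level was 1.8 (SD 2.78) in young and 1.84 (2.71) in old cells, a difference of 0.04 whose sign changed in 3 of the 9 alternative settings. Among the cells that expressed *Egln2*, few values lay in the middle of the range. In the young cells 7 values lay between 2.15 and 2.77 and 8 between 6.75 and 8.53, with 1 cell at 4.44 between them. In the old cells 11 values lay between 2.18 and 3.11 and 9 between 6.09 and 9.21, with cells at 4.03 and 4.84 between them. A read of *Egln2* was present in 27 young and 29 old cells, so that further cells with reads lay below the limit of 2. The lower edge of the lower values was thus set by that limit.

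*Hif1an*, which encodes the asparaginyl hydroxylase that blocks coactivator binding, was expressed in 5 young cells (9.62%, 3.20% to 21%) and 8 old cells (12.9%, 5.74% to 23.9%). Its values in the 5 young cells were 3.52, 4.42, 6.80, 7.51 and 8.24, and in the 8 old cells they ran from 3.95 to 9.49 with a median of 6.38. The median over all cells was 0 in both ages. Its mean was 0.62 (SD 1.90) in young and 0.90 (2.28) in old cells, a difference of 0.27, which became -0.18 in cells that expressed no cell cycle gene. The log2 ratio of mean CPM was 0.88, and -0.18 without the old cell B7, which held 64.5% of its old reads. The young cell F6 held 53% of its young reads.

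*Vhl*, which encodes the recognition subunit of the ubiquitin ligase, was expressed in 3 young cells (5.77%, 1.21% to 15.9%), at log2(CPM + 1) of 2.42, 8.13 and 8.19, and in 6 old cells (9.68%, 3.63% to 19.9%), at 2.83, 3.89, 4.80, 6.19, 8.64 and 8.97. No read was present in 46 young and 50 old cells, the most of any member in the young cells. Averaged over cells, the level was 0.44 (SD 1.63) in young and 0.65 (1.89) in old cells, a difference of 0.20. The log2 ratio of mean CPM was 0.56, and -0.38 without the old cell F3, which held 1281 of its 2598 old reads.

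At least 1 of the 3 hydroxylase genes *Egln1*, *Egln2* and *Hif1an* was expressed in 26 of 52 young cells (50%) and in 32 of 62 old cells (51.6%). *Hif1a* is 1 gene, so its shares of 19.2% and 33.9% compare with each hydroxylase gene and not with the 3 together. Singly, *Egln1* stood at 15.4% (young) and 24.2% (old), *Egln2* at 30.8% and 35.5%, and *Hif1an* at 9.62% and 12.9%. Each of these single shares was larger in the old mouse, with intervals that overlap between the ages.

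The targets differed from each other. *Bnip3*, whose product recruits the autophagy machinery to mitochondria, was lower in the old cells and had the highest level per length of any member in both ages. Its median log2(CPM + 1) was 0.39 in young and 0 in old cells, and its highest values were 10.85 and 10.27. It was expressed in 15 young cells (28.8%, 17.1% to 43.1%) and 14 old cells (22.6%, 12.9% to 35%), and the median level in those cells was 8.47 and 7.56. On average the level was 2.33 (SD 3.71) in young and 1.67 (3.17) in old cells, a difference of -0.66. In young cells 25288 reads were counted (24977 to 25602), of which 4 cells gave 18806 (74.4%), and in old cells 5933 (5783 to 6086), of which 4 cells gave 4242 (71.5%). The level was lower in old cells in all 9 alternative settings, with differences of -1.33 to -0.48, and passed 1 in size with a pseudocount of 0.1 CPM (-1.27) and as the log2 ratio of mean CPM (-1.33). The ages also differed in the share of cells with any *Bnip3* read, which was 59.6% in young and 30.6% in old cells, mainly through cells with 1 to 10 reads (19 young and 6 old). After each cell was thinned to 250000 reads, the shares with a *Bnip3* read were 30.8% and 25.8% (16 cells in each age). Thinning takes most reads from the cells of both ages, so that many cells with 1 to 10 reads lose them all. It therefore cannot show what part of the gap came from the larger number of reads in young cells, which was not tested.

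*Vegfa* had a read in more cells than any other member, and yet was expressed in few. A read was present in 71.2% of young and 62.9% of old cells, but only 2 young and 6 old cells held more than 10. After thinning to 250000 reads, 9 young and 14 old cells held one. It was expressed in 3 young cells (5.77%, 1.21% to 15.9%), at 2.03, 3.46 and 5.10, and in 6 old cells (9.68%, 3.63% to 19.9%), at 2.36, 3.25, 4.23, 5.11, 5.39 and 6.04. Its median over all cells was 0.57 in young and 0.56 in old cells. The mean level was 0.85 (SD 0.95) in young and 0.91 (1.32) in old cells, a difference of 0.06. The log2 ratio of mean CPM was 1.0 and fell to 0.46 without the old cell G2, which held 136 of the 412 old reads.

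**Figure D4:**
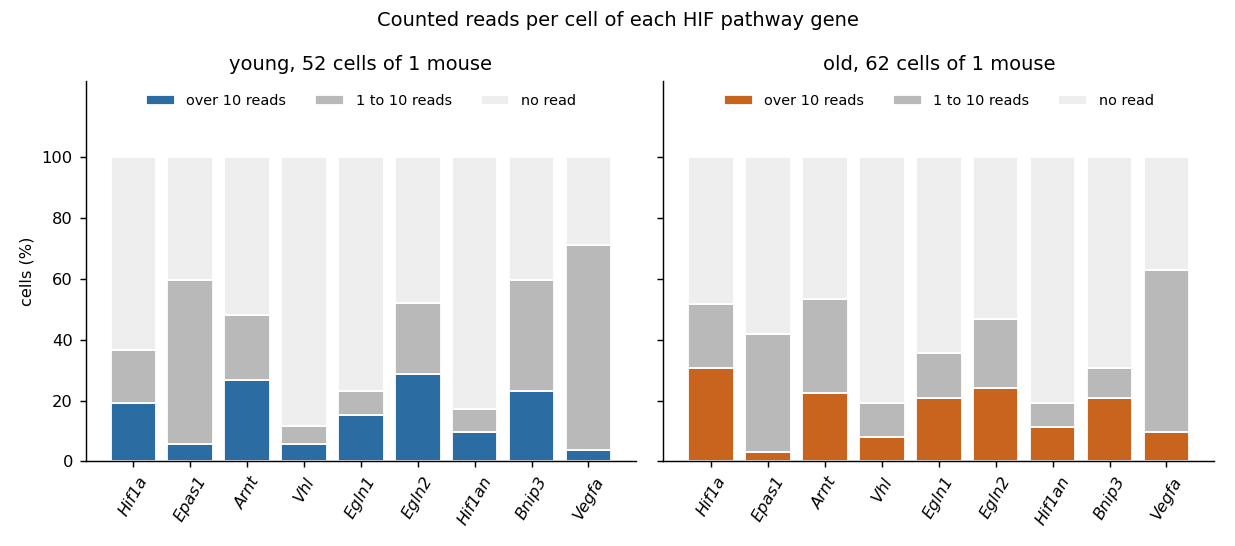
Number of reads of each member per cell. The vertical axis is the percentage of the 52 young (left) or 62 old (right) cells with no read, 1 to 10 reads or over 10 reads; *Epas1* and *Vegfa* have a read in many cells but over 10 reads in few, and *Bnip3* has a read in 59.6% of young and 30.6% of old cells at these unequal depths, against 30.8% and 25.8% after thinning to 250000 reads.

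Levels of different members were compared per kilobase of exon, as RPKM computed from the CPM. In the young cells the mean RPKM was highest for *Bnip3* at 103 (SD over cells 257). It was followed by *Egln2* at 18.3 (44.9), *Hif1a* at 10.2 (40.9), *Arnt* at 6.95 (23.6), *Vhl* at 3.99 (19.8), *Egln1* at 1.98 (7.11), *Hif1an* at 1.94 (8.12), *Vegfa* at 0.459 (1.34) and *Epas1* at 0.211 (0.466). In the old cells the order was *Bnip3* at 41 (120), *Hif1a* at 18.8 (47.6), *Egln2* at 17.6 (51.1), *Arnt* at 10.5 (44.8), *Egln1* at 8.63 (40.1), *Vhl* at 5.89 (28.9), *Hif1an* at 3.56 (15.7), *Vegfa* at 0.919 (3.00) and *Epas1* at 0.458 (2.51). *Bnip3* was first and *Vegfa* and *Epas1* last in both ages, *Hif1a* and *Egln2* exchanged places, and *Egln1* stood above *Vhl* in old cells and below it in young cells. Every SD was larger than its mean, so that no neighbours in either order differed beyond the spread between cells.

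Cells differed in how many members they expressed, with at most 4 in a young cell and 6 in an old cell. Whether members gathered in the same cells or lay in different ones was not tested. A cell expressed a median of 2 members in both ages, and a mean of 1.52 in young and 1.77 in old cells. No member was expressed in 8 young cells (15.4%) and 15 old cells (24.2%), and at least 3 members in 6 young cells (11.5%) and 18 old cells (29%). Depth entered these counts: in the cell with the most members, the old cell A4 with 6 members and 276316 reads, *Hif1a*, *Arnt*, *Egln1* and *Egln2* rested on 1 read each, *Hif1an* on 4 and *Bnip3* on 141. After each cell was thinned to 250000 reads, at which 1 read makes a cell expressing, at least 3 members were expressed in 13 young cells (25.0%) and 22 old cells (35.5%), and none in 8 young and 9 old cells (14.5%).

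*Hif1a* and *Arnt* were expressed together in 3 young and 6 old cells, which is 29% of the 31 cells with *Hif1a* and 30% of the 30 cells with *Arnt*. Over all 114 cells *Arnt* was expressed in 26.3% and *Hif1a* in 27.2%, so that these shares lay close to those of all cells. *Hif1a* and *Epas1* were expressed together in 0 of 114 cells, which allows a share of up to 2.63%. *Epas1* was expressed in only 7 of these cells, so that few shared cells could occur and the 0 does not show that the genes exclude each other. *Hif1a* was found with *Bnip3* in 4 young and 6 old cells and with *Egln2* in 3 young and 9 old cells. With *Vhl* it shared 5 of the 6 old cells that expressed *Vhl* and 0 of the 3 young ones, a pair picked for its values, where *Hif1a* was expressed in 33.9% of all old and 19.2% of all young cells. *Egln1* and *Egln2* were together in 2 young and 7 old cells. Spearman correlations of the members' levels across the cells of an age ran from -0.28 to 0.20 with the cell's total reads and from -0.05 to 0.34 with its number of expressed genes.

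The genes most alike in pattern were ranked by the mean of the Spearman correlations across the 52 young and the 62 old cells, among the 6042 genes that at least 20% of the cells of each age expressed. *Arnt*, *Egln2* and *Bnip3* met that limit. For *Bnip3* these were *Sgta* (0.40 in young and 0.50 in old cells), *Acadvl* (0.30 and 0.48), an enzyme of fatty acid oxidation, and *Smim20* (0.31 and 0.40). For *Egln2* they were *Elp3* (0.30 and 0.49), *Hspa14* (0.40 and 0.30) and *H2-DMb1* (0.46 and 0.24). For *Arnt* they were *Smek2* (0.43 and 0.25), *Hoxa10* (0.40 and 0.26), a homeobox gene of blood progenitors, and *Pcm1* (0.28 and 0.37). All cells of an age share a mouse and a run, and these genes were picked as the highest of 6042, so that the values are a description.

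The wider pathway was examined with lists of genes named for their role, of which those expressed in at least 10% of cells were compared. Among all 9374 genes compared, 45.01% had a difference above 0, 6.24% were higher by at least 1 and 6.98% lower by at least 1. Whether the counts of the lists below depart from these shares was not tested. Among further HIF subunits and genes of the oxygen-sensing machinery, 15 of 16 were in the table and 13 were compared, with a median difference of 0.05, 9 above 0, 1 higher by at least 1 and 0 lower by at least 1. The 1 was *Os9*, which encodes a lectin of the endoplasmic reticulum also described as a partner of the alpha subunit, at a mean level of 1.75 in young and 3.13 in old cells (expressed in 14 and 29 cells). Next in size were *Ep300*, a coactivator of HIF, at 3.12 and 2.44, *Cited2*, which competes with HIF for that coactivator, at 2.89 and 3.36, the second coactivator *Crebbp* at 4.62 and 5.0, and *Tceb1*, a subunit of the VHL ligase, at 4.39 and 4.15. The log2 ratio of mean CPM of *Cited2* was -0.06, so that its direction depended on the scale.

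Of the HIF target genes of glucose metabolism, all 20 were in the table and 18 were compared, with a median difference of 0.07, 11 above 0, 3 higher by at least 1 and 1 lower. *Ldha*, which converts pyruvate to lactate, had a mean level of 7.20 in young and 9.33 in old cells and was expressed in 48 and 62 cells. *Hk2*, a hexokinase, was at 2.47 and 4.30 (18 and 32 cells), and *Pfkp*, a phosphofructokinase, at 1.2 and 2.68 (10 and 26 cells). *Pdk1*, a kinase that inhibits pyruvate dehydrogenase, was at 3.53 and 2.41 (29 and 23 cells), and *Pgk1*, the phosphoglycerate kinase, at 5.36 and 4.43 (37 and 43 cells). The list therefore did not move in 1 direction, with *Ldha*, *Hk2* and *Pfkp* higher and *Pdk1* lower in the old cells.

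Of 29 other HIF target genes, 26 were in the table and 15 were compared, with a median difference of 0.15, 9 above 0, 2 higher by at least 1 and 1 lower. *Ndrg1*, a stress-responsive gene, was at 1.10 in young and 3.51 in old cells and was expressed in 9 and 35 of them, the largest difference of any listed gene. *Cxcr4*, the receptor for the niche chemokine CXCL12, went the other way, at 2.04 and 0.46 (21 and 7 cells). *Bhlhe40*, a transcriptional repressor, was at 0.26 and 1.13 (3 and 10 cells), and *P4ha1*, a collagen prolyl hydroxylase, at 1.05 and 0.44 (10 and 4 cells).

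Genes for the removal of mitochondria also moved apart. Their list held receptors of the kind to which *Bnip3* belongs, together with *Pink1* and *Park2*, which do not encode such receptors. The median and counts of the list are thus not those of the receptors alone. All 6 further genes of this list were compared, with a median difference of -0.16, 2 above 0, 1 higher by at least 1 and 1 lower. *Bnip3l*, the closest relative of *Bnip3* and itself a HIF target counted in the preceding list too, was at 5.32 in young and 6.54 in old cells (38 and 52 cells), whereas *Bnip3* was at 2.33 and 1.67. The difference of *Bnip3l* was 1.23 but its log2 ratio of mean CPM was 0.33. *Fundc1*, another receptor, was at 3.21 and 2.03 (20 and 18 cells), *Phb2*, an inner membrane receptor, at 2.57 and 1.63 (20 and 16 cells), *Park2*, the ubiquitin ligase parkin, at 0.51 and 0.92, and *Bcl2l13* at 1.08 and 0.77. For *Bcl2l13* the log2 ratio of mean CPM was 0.28, so that its direction depended on the scale.

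Of the other VEGF ligands and receptors, 7 of 9 were in the table and 2 were compared. *Nrp2*, a VEGF co-receptor, was at 2.52 in young and 2.83 in old cells (35 and 46 cells), and the ligand *Vegfb* at 0.64 and 0.72 (6 and 6 cells). Endothelial markers were detected beside these genes: at least 1 of the 4 measured was expressed in 32 young and 27 old cells, with a summed CPM of 0 to 1224 (median 22.9) in young and of 0 to 1925 (median 1.90) in old cells. Among them *Kdr*, the main VEGF receptor of endothelium, was expressed in 0 young and 2 old cells, *Emcn* in 20 and 7, *Tek* in 13 and 11 and *Pecam1* in 9 and 14, some of which HSCs are also known to express. The part of these markers in the values of the VEGF genes was not tested.

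**Figure D5:**
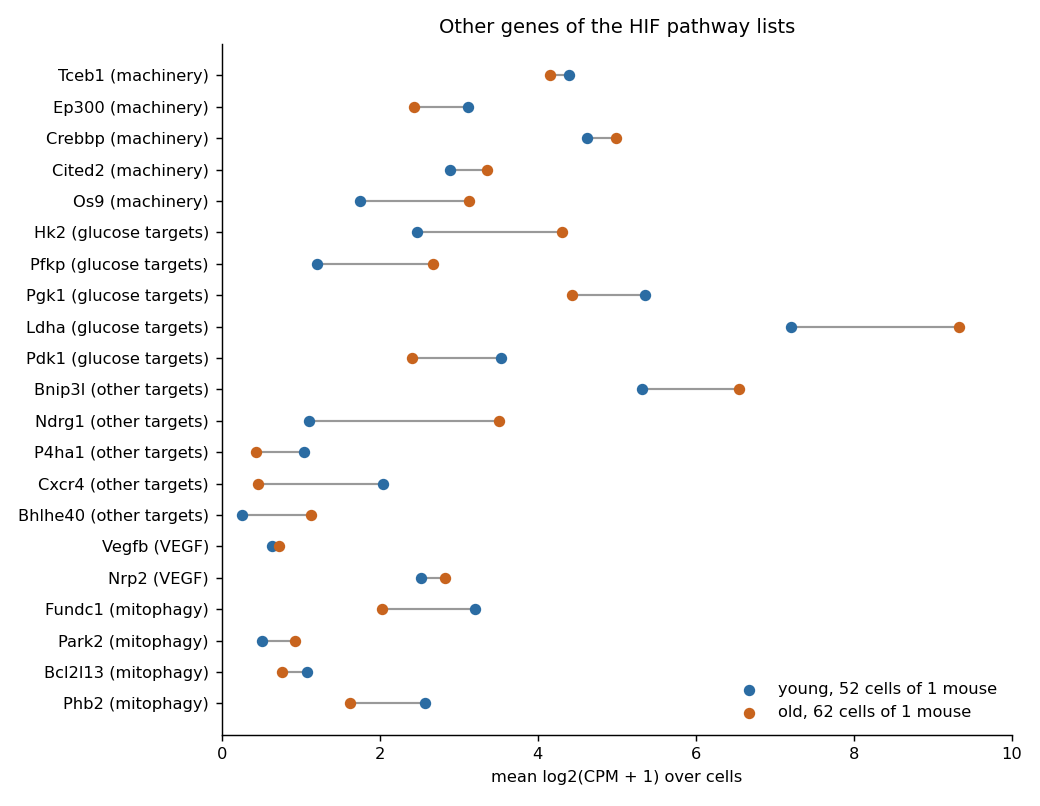
Mean level in young and old cells of the genes named from the wider pathway lists. The horizontal axis is the mean log2(CPM + 1) over the 52 young or 62 old cells of 1 mouse each and lines join the ages; *Ldha*, *Ndrg1*, *Hk2*, *Pfkp*, *Os9* and *Bnip3l* lie higher by at least 1 in old cells, and *Cxcr4*, *Fundc1* and *Pdk1* lower by at least 1.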

How the data were processed

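Single HSCs of 1 young and 1 old mouse were captured on C1 chips and sequenced as single 51 bp reads. Per the labels and the study's methods, the authors aligned the reads to mm10 with TopHat2 (version 2.0.10) and used rpkmforgenes to count them on RefSeq genes, and the deposited table holds raw read counts per gene and cell, without normalization. Of 61 young and 74 old cells, the 114 that pass the study's limits were used (at least 500000 mapped reads, at most 10% mitochondrial, 3000 or more genes with an RPKM of 1 or more); the limits' values were read from the study's list of cells. In these cells 273236 to 5688706 reads were counted on genes, and in the cells with the fewest reads 1 read sufficed for a CPM above 3.

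Counts were divided by each cell's total to give CPM, followed by log2(CPM + 1), means over cells, differences as old minus young, shares with 95% exact Clopper-Pearson intervals and summed reads with 95% exact Poisson intervals. A share of 0 was given the limit that 3 cells allow. Genes that at least 10% of these cells expressed were compared, and a difference of at least 1 in size was counted. Each age is 1 mouse, so no p-value, no replicate left out and no paired fit was possible. RPKM was computed with the exon union of GENCODE vM21 transcripts that match RefSeq. Named were the 9 members, at most 5 genes of each list by size of difference and the 3 genes most alike to a member. The members and lists were chosen with earlier results of these data known. Of the listed pathway and marker genes, 19 were not analysed here, and 1 of the HSC markers is not reported here. Alternatives covered the cells used, the pseudocount, the ratio of mean CPM, size factors from edgeR 4.0.16 (TMMwsp) and from DESeq2 1.42.0 (poscounts), cells thinned to 250000 reads, all genes with a read, and the limit for an expressing cell. The steps were tested on simulated data. Python 3.11.15, numpy 2.4.6, pandas 2.3.3, scipy 1.17.1 and R 4.3.3 were used.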

Additional observations from a re-analysis of the deposited data

How the results depend on the processing

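With 1 mouse per age, no alternative can show how the members vary between mice. No paired analysis was possible because the groups hold 1 mouse each, and the chip positions that young and old cells share in their names pair no samples. Of the members' 117 differences under alternative settings, 110 moved the ratio they stand for by less than 1.5 times, 89 of 108 shares stayed in their 95% intervals, and 60 of 68 summary values stayed within the limit set for them. The 117 include differences computed without 1 cell. Leaving out 1 cell moves a mean over the cells of an age too little to pass that limit, so these say nothing about stability. The 7 differences that moved all came from the other settings. The median difference of the 9 members was 0.06, and 0.88 as the log2 ratio of mean CPM. On that ratio the median of all genes compared was -0.04. Single cells weighed heavily in it. Without the old cell of highest CPM, the ratios of *Epas1*, *Arnt*, *Vhl* and *Hif1an* fell below 0, and those of *Hif1a*, *Egln1* and *Vegfa* stayed above 0. The count of members higher by at least 1 was 1, and 0 with all cells of the table and 0 with looser limits on cells (58 young and 70 old), where the difference of *Hif1a* was 0.93 and 0.99. The count lower by at least 1 was 0, and 1 (*Bnip3*) with a pseudocount of 0.1 CPM and 1 as the log2 ratio of mean CPM. The counts under these alternatives stand without the share of all genes under the same setting. Over all genes with a read, 3.91% were higher by at least 1 and 4.49% lower. With the mean of log2(RPKM + 1) in place of mean RPKM, the order of the members in young cells correlated with that given at a rho of 0.867. *Epas1*, *Arnt*, *Hif1an* and *Vegfa* each changed sign in 1 of 9 settings and *Egln2* in 3. Restricting to cells without cell cycle genes moved the median difference of all genes compared by 0.13, to 0.06. Leaving out the cell with the most reads or the highest CPM of a member and the limit of more than 10 reads were chosen after seeing the data. At the lowest depth a single read passed the limit for an expressing cell, and a member at 0 was not detected at the depth of its cell, which does not show that it was absent.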

Other observations

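*Epas1* and *Vegfa* belonged to a small set of genes with few reads in many cells, which was noticed after the values were seen. A read of *Vegfa* was present in 76 of the 114 cells, with a median of 2 reads where present, yet it was expressed in 9, and a read of *Epas1* was present in 57 cells, also with a median of 2, and it was expressed in 7. Of all 681490 pairs of a gene and a cell with a read, 38.7% held 1 to 10 reads and 15.4% held 1. Of the 5296 genes with a read in at least 50% of the cells, 148 were expressed in under 10% of them. Among those with a read in the most cells were *Lhx5* (99 cells, 11 expressing), *Gria1* (95 and 6), *Six3* (95 and 10), *Ccdc67* (94 and 11) and *Nr2f2* (93 and 6), several of which are known mainly from the nervous system and the embryo. For comparison, *Bnip3* was expressed in 29 of the 114 cells, at log2(CPM + 1) of up to 10.85. What the scattered reads of these genes stand for was not tested.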
